A study of Mus musculus with 12 samples.

Results

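The interferon ligands Ifna1, Ifna2, Ifna4, Ifnb1 and Ifng and the interferon receptor chains Ifnar1, Ifnar2 and Ifngr1 were taken by symbol from a table of 750 immune genes, and all 8 were found, so that 5 ligands and 3 receptors of 750 genes are described. The table holds mRNA counts of 12 mouse mammary tumors, 3 in each of 4 treatment groups, measured with the nCounter PanCancer Immune Profiling Panel, whose barcoded probes bind RNA molecules and are counted singly without amplification. All tumors were of the K14-Cre;Brcaf/fTrp53f/f model of triple-negative breast cancer, in which Cre under the keratin 14 promoter deletes Brca1 and Trp53 in epithelium, and they grew as transplants in mammary fat pads of female mice of the syngeneic FVB/129P2 background, whose age is not given in the sources used here. Vehicle mice received intraperitoneal DMSO in saline and an intratumoral injection of saline, olaparib mice received olaparib at 50 mg/kg daily with intratumoral saline, ADU-S100 mice received a single intratumoral dose of 50 μg in 40 μl with intraperitoneal DMSO, and combination mice received both drugs. Olaparib inhibits PARP, and ADU-S100 is an agonist of STING, the adaptor of cytosolic DNA sensing. Tumors were taken 3 days after the start of treatment. In bulk tumor RNA, fewer cells of a type and less RNA per cell cannot be told apart. The p-values set differences between groups against the spread between tumors. In the fits this spread is estimated over all 4 groups, and it also holds technical differences between tumors.

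Type I interferons are secreted within hours of sensing viral or self DNA, are encoded by a family of alpha genes and 1 beta gene, and act on nearly every cell through a receptor made of Ifnar1 and Ifnar2. Ifnb1 is induced early through the kinase TBK1 and the factor IRF3 downstream of STING, whereas most alpha genes depend on IRF7, which interferon itself induces, and plasmacytoid dendritic cells are their classic source. Interferon gamma, encoded by Ifng, is made by T and NK cells and binds a receptor whose ligand-binding chain is Ifngr1. The ligand mRNAs are short-lived and made by few cells, and the receptor chains are made by most cells.

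The genes of the ligands and of the receptors also differ in their promoters. Upstream windows of 250 bases were read for 8 of 8 members from RefSeq (GRCm38.p6), together with 32851 windows of the same length for other genes. Ifna1, Ifna2, Ifna4 and Ifnb1 lie on chromosome 4, Ifnar1 and Ifnar2 on chromosome 16, and Ifng and Ifngr1 on chromosome 10. The letters AANNGAAA, a core of the elements that interferon regulatory factors bind, were searched on both strands. They occurred 3 times each upstream of Ifnb1 and Ifna4, 2 times upstream of Ifna2 and 1 time upstream of Ifna1 and of Ifng, and 0 times upstream of the 3 receptor genes. Of all windows, 21.3% held at least 1 match and 4.201% at least 2. CG dinucleotides numbered 1 or 2 upstream of the type I ligands and 6 upstream of Ifng, against 19 for Ifnar1 and 11 each for Ifnar2 and Ifngr1, where the median over all windows was 6. A match is a description of the sequence and shows no binding. The 150 bases before the start of Ifnb1 and Ifna4, the ligands with the most matches, are shown with AANNGAAA on either strand in capitals, and those before Ifnar1 with CG in capitals. Their positions are chr4:88522795-88522944 (minus strand) for Ifnb1, chr4:88841666-88841815 (plus strand) for Ifna4 and chr16:91485065-91485214 (plus strand) for Ifnar1.
Ifnb1: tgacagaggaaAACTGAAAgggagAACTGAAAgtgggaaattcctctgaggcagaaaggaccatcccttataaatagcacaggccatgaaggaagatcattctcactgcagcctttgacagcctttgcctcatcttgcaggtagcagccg
Ifna4: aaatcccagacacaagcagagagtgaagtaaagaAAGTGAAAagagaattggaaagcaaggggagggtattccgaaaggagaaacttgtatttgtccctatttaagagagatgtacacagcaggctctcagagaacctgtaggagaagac
Ifnar1: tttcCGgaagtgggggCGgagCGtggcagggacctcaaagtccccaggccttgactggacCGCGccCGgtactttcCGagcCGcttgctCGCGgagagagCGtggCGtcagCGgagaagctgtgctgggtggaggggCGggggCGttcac

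The deposited values are normalized counts, which the authors scaled tumor by tumor. Apart from values at a floor of 1, the numbers of a tumor are whole multiples of 1 step, within a tolerance of 0.01 of a count, so that the count behind them could be recovered by division. The 12 values at the floor, of 9000 in all and in 5 tumors, are no multiples of the step, were set to 0 counts and include no member. In 7 tumors no value above the floor stood for 1 count, and there the step was inferred from the spacing of the low values. This step, which 1 count is worth after scaling, is called the scaling factor here. The factors were 0.682, 1.49 and 0.693 in the vehicle tumors 1269, 1529 and 1536, and 2.85, 1.96 and 1.43 in the ADU-S100 tumors 1506, 1512 and 1513. In the olaparib tumors 1510, 1517 and 1521 they were 1.95, 10.5 and 0.589, and in the combination tumors 1251, 1270 and 1539 they were 0.810, 0.824 and 0.820. Factors ranged 17.8-fold, and the total recovered count ranged 14.3-fold, from 106206 in the olaparib tumor 1517 to 1519471 in the vehicle tumor 1269. The factor therefore moves with the groups: 3 of 3 ADU-S100 and 2 of 3 olaparib tumors, but 1 of 3 vehicle and 0 of 3 combination tumors, had a factor above 1.

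Receptors and ligands fell into separate ranges of counts in every tumor. To separate them from background, the recovered counts were set beside those of the 30 genes with the lowest median normalized count on the panel, members left out. These 30, among them Il27, Cd70 and Epsti1, are genes of the immune panel and not control probes. Whether some of them were expressed was not tested. The highest count among these 30 genes lay between 9 and 33 per tumor. Ifnar1, Ifnar2 and Ifngr1 exceeded it in 12 of 12 tumors. Ifnb1 exceeded it in 6 tumors, Ifna4 in 5 and Ifna1 in 3, and Ifna2 and Ifng in 0 of 12 tumors. A gene at or below this highest count in at least 6 tumors was called near background, which took in all 5 ligands. The line depends on where it is drawn: with the 15 lowest genes only Ifna2 was near background, and with the 60 lowest genes all 5 ligands were. Against the median of the 30 genes, which was between 3 and 7.5 counts per tumor, Ifna1, Ifna4 and Ifnb1 were higher in 12 tumors and Ifna2 and Ifng in 10. By median normalized count over the tumors, counted from the lowest of the 750 genes, the ligands stood at place 71 (Ifna1), 40 (Ifna2), 116 (Ifna4), 132 (Ifnb1) and 50 (Ifng), and the receptors at 627 (Ifnar1), 579 (Ifnar2) and 651 (Ifngr1). Probes differ in efficiency, so these places order probe counts and not numbers of molecules.

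**Figure D1:**
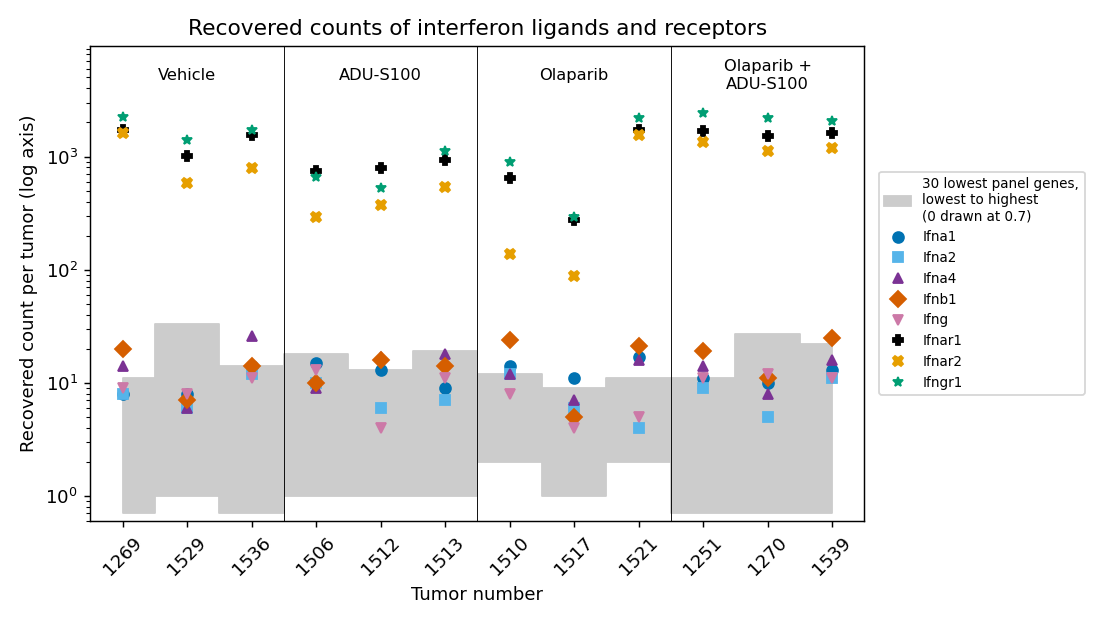
Recovered counts of the 5 ligands and 3 receptors in each of the 12 tumors on a log axis, with the tumor number on the horizontal axis and 1 marker per gene. The grey band spans the lowest to the highest count of the 30 lowest panel genes in that tumor. The ligands lie between 4 and 26 counts, in or just above the band, and the receptors between 87 and 2450 counts.

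Ifnb1, the first interferon made after STING activation, had 20, 7 and 14 recovered counts in the vehicle tumors 1269, 1529 and 1536, and 10, 16 and 14 in the ADU-S100 tumors 1506, 1512 and 1513. It had 24, 5 and 21 counts in the olaparib tumors 1510, 1517 and 1521, and 19, 11 and 25 in the combination tumors 1251, 1270 and 1539. The 4 groups overlapped in counts, and the lowest count came from the tumor with the lowest total. The exact 95% Poisson interval, which covers counting error only, ran from 1.62 to 11.7 for the 5 counts of tumor 1517 and from 16.2 to 36.9 for the 25 counts of tumor 1539. After scaling, the same molecule had 13.6, 10.4 and 9.70 normalized counts in vehicle, 28.5, 31.4 and 19.97 in ADU-S100, 46.8, 52.4 and 12.4 in olaparib and 15.4, 9.07 and 20.5 in combination tumors. Scaling turned tumor 1517 from the lowest in counts to the highest in normalized counts.

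Ifna4, an alpha interferon, was counted 14, 6 and 26 times in vehicle, 9, 17 and 18 times in ADU-S100, 12, 7 and 16 times in olaparib and 14, 8 and 16 times in combination tumors, in the same order of tumors. Its normalized counts were 9.55, 8.92 and 18.0 in vehicle, 25.6, 33.4 and 25.7 in ADU-S100, 23.4, 73.4 and 9.43 in olaparib and 11.3, 6.60 and 13.1 in combination tumors. In counts the groups overlapped, and in normalized counts every ADU-S100 tumor lay above every vehicle and every combination tumor. Ifna1 had 8, 8 and 14 counts in vehicle, 15, 13 and 9 in ADU-S100, 14, 11 and 17 in olaparib and 11, 10 and 13 in combination tumors. Its normalized counts were 5.46, 11.9 and 9.70 in vehicle, 42.7, 25.5 and 12.8 in ADU-S100, 27.3, 115 and 10.02 in olaparib and 8.91, 8.24 and 10.7 in combination tumors. The alpha interferon genes are close paralogs, and whether their probes tell them apart was not tested. Over the 12 tumors, the highest and lowest Ifna1 counts differed by 2.13-fold, and the normalized counts by 21.1-fold.

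Ifna2, the alpha interferon with the lowest median count, had 8, 6 and 12 counts in vehicle, 10, 6 and 7 in ADU-S100, 12, 6 and 4 in olaparib and 9, 5 and 11 in combination tumors. Its normalized counts were 5.46, 8.92 and 8.31 in vehicle, 28.5, 11.8 and 9.99 in ADU-S100, 23.4, 62.9 and 2.36 in olaparib and 7.29, 4.12 and 9.02 in combination tumors. No tumor had more Ifna2 counts than the highest of the 30 lowest genes. Ifng, the product of activated T and NK cells, had 9, 8 and 11 counts in vehicle, 13, 4 and 11 in ADU-S100, 8, 4 and 5 in olaparib and 11, 12 and 11 in combination tumors. Its normalized counts were 6.14, 11.9 and 7.62 in vehicle, 37.0, 7.86 and 15.7 in ADU-S100, 15.6, 41.9 and 2.95 in olaparib and 8.91, 9.89 and 9.02 in combination tumors. In recovered counts the combination tumors lay above the olaparib tumors, as did 24.4% of the 750 genes, and the other comparisons overlapped. In normalized counts the 4 groups overlapped.

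The 5 ligands together had 59, 35 and 77 counts in vehicle, 57, 56 and 59 in ADU-S100, 70, 33 and 63 in olaparib and 64, 46 and 76 in combination tumors. This sum varied 2.33-fold over tumors whose totals varied 14.3-fold. Its normalized value was 40.2, 52.0 and 53.3 in vehicle, 162, 110 and 84.2 in ADU-S100, 136, 346 and 37.1 in olaparib and 51.8, 37.9 and 62.3 in combination tumors, a 9.32-fold range. The highest normalized sum belonged to tumor 1517, which had the largest factor, and the lowest to tumor 1521, which had the smallest. Within a tumor, the mean ligand count was 1.15 to 2.16 times the mean count of the 30 lowest genes in vehicle, 1.60 to 2.20 times in ADU-S100, 1.77 to 2.41 times in olaparib and 1.17 to 2.22 times in combination tumors. By this ratio, which does not contain the factor, the 4 groups overlapped.

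**Figure D2:**
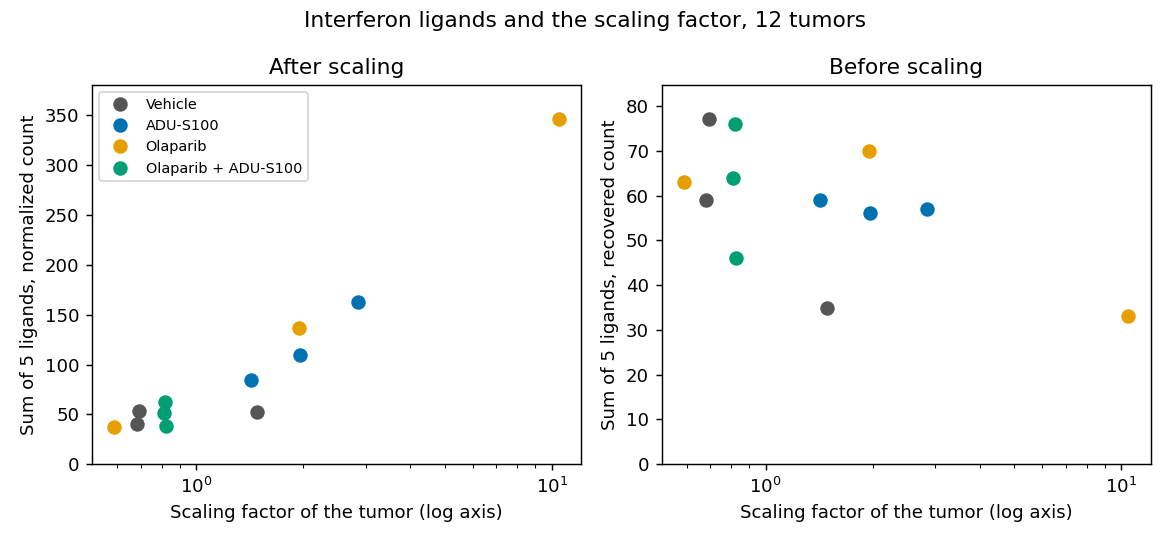
Sum of the 5 ligands against the scaling factor of the tumor (log axis), as normalized counts on the left and as recovered counts on the right, with 1 point per tumor colored by group. The normalized sum is highest, at 346, in the tumor with the factor 10.5, while the recovered sums lie between 33 and 77 in all tumors.

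Differences between groups were tested with limma on log2(normalized count + 1) over the 689 genes with at least 20 normalized counts in at least 3 tumors. Of the 8 members, 7 entered the fit. The 3 receptors passed this filter in 12 of 12 tumors. Ifna1, Ifna2, Ifna4 and Ifnb1 passed through 3 to 5 tumors, all of them from the ADU-S100 and olaparib groups except combination tumor 1539 for Ifnb1, and Ifng did not pass. Fold changes are on this log2 scale, on which the value added to each count understates changes of low genes. At a Benjamini-Hochberg adjusted p of 0.05, 0 of the 7 members passed in each of 6 comparisons, and the share of all genes tested that passed was 0% in each. Because the 4 ligands entered the fit largely through the groups in which they were high, their calls are given as values and are no independent support for a difference. At an unadjusted p below 0.05, limma gave 0 members in the combination against vehicle (7.69% of all genes), 0 in ADU-S100 against vehicle (4.79%), 2 in olaparib against vehicle (7.26%), 1 in the combination against ADU-S100 (9.14%) and 1 in the combination against olaparib (7.26%). All of these members were ligands. The numbers moved with the processing. With only the groups compared they were, in the same order, 0 (107 of 689 genes), 3 (58), 0 (16), 2 (157) and 0 (36). With a pseudocount of 10 they were 0 in the combination against ADU-S100 (60 of 689 genes) and 0 against olaparib (50). The comparisons share tumors: 3 of them use the vehicle group and 3 use the combination group.

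In ADU-S100 against vehicle, the ligand log2 fold changes were 1.39 for Ifna1 (standard error 0.74), 0.93 for Ifna2 (0.87), 1.21 for Ifna4 (0.62) and 1.16 for Ifnb1 (0.54), with limma adjusted p = 0.809 for each. The Ifna2 value was 0.49 without ADU-S100 tumor 1506. The groups did not overlap for 4 of these 4 ligands, where 13.9% of all genes were higher without overlap. In recovered counts ADU-S100 and vehicle overlapped for each of them. In olaparib against vehicle the log2 fold changes were 1.78 for Ifna1, 1.04 for Ifna2, 1.08 for Ifna4 and 1.42 for Ifnb1, with the same standard errors and limma adjusted p between 0.577 and 0.658. Here the groups overlapped for 4 of 4 ligands, where 4.79% of all genes did not overlap and olaparib tumor 1521 did not lie above all vehicle tumors for any of them. Without tumor 1521, limma called Ifna1 (log2 fold change 2.58, adjusted p = 0.0448), Ifna2 (2.23, adjusted p = 0.0453) and Ifnb1 (2.06, adjusted p = 0.025), together with 7.98% of all genes. The olaparib tumors that then remained, 1510 and 1517, had the factors 1.95 and 10.5 and are among the tumors through which these ligands passed the filter. Without tumor 1517 instead, the log2 fold changes were 0.88 for Ifna1, 0.10 for Ifna2, 0.34 for Ifna4 and 1.06 for Ifnb1, and 0 members reached even an unadjusted p below 0.05 in limma. The median of the 4 ligands was 1.25 with all tumors and 0.61 without tumor 1517. In ADU-S100 against vehicle, where the spread is shared over all groups, 3 of the 4 ligands had an unadjusted p below 0.05 in limma with tumor 1517 left out, where the share of all genes rose to 10.9%, and likewise 3 with tumor 1521 left out, where it was 11.5%. The fold changes were the same in these fits, and 0 members passed the adjusted threshold.

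In the combination, each ligand differed from vehicle by less than its standard error. The log2 fold change was 0.09 for Ifna1, -0.16 for Ifna2, -0.20 for Ifna4 and 0.33 for Ifnb1 (limma adjusted p = 0.989 for each). The Ifnb1 value moves with single combination tumors, which had 15.4, 9.07 and 20.5 normalized counts. The groups overlapped for 4 of 4 ligands and 3 of 3 receptors, where 20% of all genes did not overlap. The differences of the combination from ADU-S100 were -1.30, -1.09, -1.40 and -0.83 on the log2 scale in the same order, with limma adjusted p between 0.523 and 0.657. Without ADU-S100 tumor 1506 the Ifna2 value was -0.66, and without combination tumor 1270 the Ifnb1 value was -0.53. Ifna1, Ifna2 and Ifna4 did not overlap between these groups, where 20.9% of all genes were lower without overlap. From olaparib they were -1.69, -1.21, -1.28 and -1.09 (limma adjusted p between 0.594 and 0.663), with overlap for each ligand, where 12.8% of all genes did not overlap. Without tumor 1521 they were -2.49 for Ifna1, -2.39 for Ifna2 and -1.73 for Ifnb1 (limma adjusted p = 0.0424, 0.0319 and 0.0319), where 7.84% of all genes passed, and without tumor 1517 they were -0.79, -0.27, -0.54 and -0.73 for Ifna1, Ifna2, Ifna4 and Ifnb1, with 0 members at an unadjusted p below 0.05 in limma.

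The interaction, by which the effect of ADU-S100 in olaparib-treated mice exceeds its effect in mice without olaparib, was -3.09 for Ifna1 (standard error 1.05), -2.14 for Ifna2 (1.23), -2.49 for Ifna4 (0.88) and -2.25 for Ifnb1 (0.76), with limma adjusted p = 0.346, 0.439, 0.346 and 0.346. At an unadjusted p below 0.05 in limma, 3 of these 4 ligands were below what the single effects add up to, where 9% of all genes were. This number was 0 with the series of tumor numbers as a block (1.6% of all genes), 0 with the log2 factor as a covariate (0.726%) and 1 with quantile normalization (7.11%), and the ligand median moved from -2.37 to -2.05, -0.93 and -0.74. The block sets tumor numbers that begin with 12 apart from those that begin with 15. Those with 12 were vehicle tumor 1269 and combination tumors 1251 and 1270, with factors of 0.682, 0.810 and 0.824. No tumor of a single treatment was among them, so that series, treatment and factor cannot be fully told apart. Without olaparib tumor 1521 the interaction ranged from -2.89 for Ifnb1 to -3.88 for Ifna1, and limma called all 4 ligands that had passed the filter and 12.5% of all genes. Without olaparib tumor 1517 the values were -2.18 for Ifna1, -1.20 for Ifna2, -1.74 for Ifna4 and -1.89 for Ifnb1, with a median of -1.82. At an unadjusted p below 0.05 in limma 3 ligands were then lower, where 5.95% of all genes were, and 0 ligands passed the adjusted threshold. Values for Ifng exist only in the fit without a filter, where its log2 fold change was 0.94 in ADU-S100, 0.61 in olaparib and 0.15 in the combination against vehicle. The olaparib value rested on tumor 1517, with 41.9 normalized counts from 4 counts. The ADU-S100 value rested largely on tumor 1506, with 37.0 from 13 counts.

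The 30 lowest panel genes moved alongside the ligands. In the fit without a filter, over 750 genes, the median log2 fold change against vehicle was 1.16 for the 5 ligands, 0.91 for the 30 lowest genes and 0.48 for all genes in ADU-S100 tumors. In olaparib tumors it was 1.08, 0.91 and 0.50, and in combination tumors 0.09, 0.05 and 0.20. Of the 30 lowest genes, 28 were higher in ADU-S100 and 29 higher in olaparib than in vehicle tumors, and so were 5 of 5 ligands in both. When the log2 scaling factor was added as a covariate, the difference from vehicle was 0.41 for Ifna1, -0.19 for Ifna2, 0.56 for Ifna4 and 0.69 for Ifnb1 in ADU-S100, and 0.63, -0.27, 0.33 and 0.86 in olaparib. The part of scaling and background in the ligand differences was not tested.

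**Figure D3:**
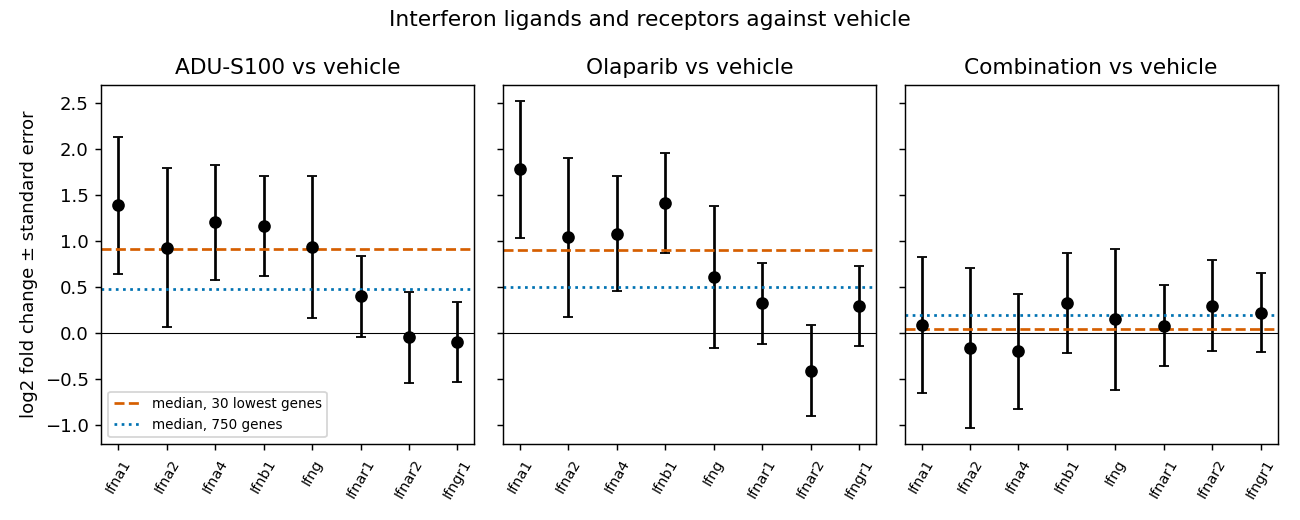
Log2 fold changes of the 8 members against vehicle for each treatment, from the limma fit without a filter on low values, as points with standard errors. The dashed line is the median of the 30 lowest genes and the dotted line that of all 750 genes. The dashed line lies at 0.91 in both single treatments and at 0.05 in the combination, 5 of 5 ligand points lie above it in ADU-S100 and 4 of 5 in olaparib tumors, and the receptor points lie closer to 0 in the single treatments.

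The receptors carried enough counts for their own comparison. Ifnar1, which with Ifnar2 forms the receptor of all type I interferons, had 1175, 1508 and 1067 normalized counts in the vehicle tumors 1269, 1529 and 1536, and 2116, 1556 and 1324 in the ADU-S100 tumors 1506, 1512 and 1513. It had 1264, 2903 and 1009 in the olaparib tumors 1510, 1517 and 1521, and 1349.6, 1260.5 and 1314 in the combination tumors 1251, 1270 and 1539. The highest value was that of tumor 1517, which had the largest factor and the lowest Ifnar1 count, 277. By group mean the order was vehicle (1249.6 ± 229.7), combination (1308 ± 44.9), ADU-S100 (1665 ± 407) and olaparib (1726 ± 1027; SD, n = 3 each), and no neighbors in this order differed beyond their spread. The place of olaparib at the top rested on tumor 1517, without which its mean was 1137 and the lowest of the 4.

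Ifnar2, the signaling partner of Ifnar1, had 1098, 869.7 and 549 normalized counts in vehicle, 837, 737 and 770.5 in ADU-S100, 269, 912 and 915 in olaparib and 1087, 915 and 985 in combination tumors. Olaparib tumor 1510 had the lowest normalized count, and its 138 recovered counts stood beside 649 for Ifnar1 and 892 for Ifngr1. The combination tumors lay above all ADU-S100 tumors, where 10.4% of all genes were higher without overlap, and overlapped vehicle and olaparib. The group means were 699 ± 372 in olaparib, 782 ± 51.2 in ADU-S100, 839 ± 276 in vehicle and 996 ± 86.5 in combination tumors (SD, n = 3 each). Without tumor 1510 the olaparib mean was 913, above those of ADU-S100 and vehicle. The log2 difference of the combination from ADU-S100 was 0.35 (standard error 0.49, limma adjusted p = 0.764) and from olaparib 0.71 (0.49, adjusted p = 0.663), the latter falling to 0.12 without olaparib tumor 1510.

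Ifngr1, which binds interferon gamma, had 1518, 2099 and 1186 normalized counts in vehicle, 1888, 1033 and 1588 in ADU-S100, 1738, 3070.5 and 1304 in olaparib and 1985, 1805 and 1679 in combination tumors. Vehicle overlapped each treatment. The group means were 1503 ± 434 in ADU-S100, 1601 ± 462 in vehicle, 1823 ± 154 in combination and 2037 ± 921 in olaparib tumors (SD, n = 3 each), again with no neighbors apart beyond their spread. Without tumor 1517 the olaparib mean was 1521 normalized counts, below those of vehicle and the combination. In the combination the SD of each receptor was smaller than in vehicle and olaparib tumors, in the group whose factors ranged from 0.810 to 0.824.

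Against vehicle, the log2 fold changes of Ifnar1, Ifnar2 and Ifngr1 were 0.08, 0.30 and 0.22 in the combination, 0.40, -0.05 and -0.10 in ADU-S100 and 0.32, -0.41 and 0.29 in olaparib tumors, with standard errors of 0.43, 0.49 and 0.42. The smallest limma adjusted p among these was 0.760. The interaction was -0.64 for Ifnar1, 0.75 for Ifnar2 and 0.03 for Ifngr1 (limma adjusted p = 0.630, 0.620 and 0.987), and it was 0.17 for Ifnar2 without olaparib tumor 1510 and -0.19 for Ifnar1 without olaparib tumor 1517. The Ifnar1 difference between ADU-S100 and vehicle was 0.22 without ADU-S100 tumor 1506, and the Ifnar2 difference between the combination and vehicle was 0.023 without vehicle tumor 1536. For Ifngr1 without vehicle tumor 1536, the mean normalized counts were 1809 in vehicle and 1823 in combination tumors. Without vehicle tumor 1529 instead, the vehicle mean was 1352. The median over all 689 genes was 0.21 in the combination, 0.44 in ADU-S100 and 0.45 in olaparib, above the values of all 3 receptors in both single treatments. For Ifnar1 in ADU-S100 this order depended on the settings. The median was 0.31 with a filter at 50, below 0.40, and 0.16 without tumor 1506, below 0.22. Scaling each tumor to the same median made the Ifnar1 difference -0.12 in the combination and -0.01 in ADU-S100, and quantile normalization made it -0.14 for Ifnar1 and -0.08 for Ifngr1 in the combination. The sign of the Ifnar2 difference in olaparib rested on tumor 1510, without which it was 0.18.

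**Figure D4:**
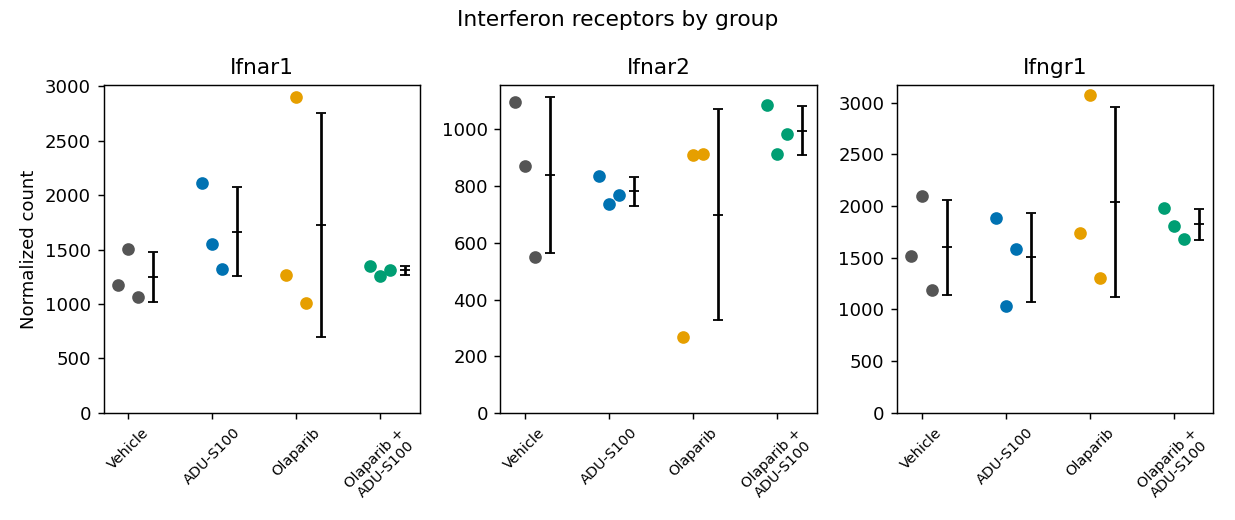
Normalized counts of Ifnar1, Ifnar2 and Ifngr1 by treatment group, with 1 point per tumor and the mean ± SD (n = 3) beside each group. The combination tumors lie close together, at 1260.5 to 1349.6 for Ifnar1, while the olaparib tumors span 1009 to 2903.

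A ratio of receptors within a tumor does not contain the scaling factor, and it was compared between tumors. Ifnar1 over Ifnar2 was 1.07, 1.73 and 1.94 in vehicle, 2.53, 2.11 and 1.72 in ADU-S100, 4.70, 3.18 and 1.103 in olaparib and 1.24, 1.38 and 1.33 in combination tumors. The olaparib group held both the largest ratio and 1 of the 2 smallest. Although the factor cancels, this ratio was not free of it. In tumors with a factor above 1 it was 1.72 to 4.70, and in those with a factor below 1 it was 1.07 to 1.94. What links the ratio and the factor was not tested. Ifngr1 over Ifnar1 was 1.29, 1.39 and 1.11 in vehicle, 0.892, 0.664 and 1.20 in ADU-S100, 1.37, 1.06 and 1.29 in olaparib and 1.47, 1.43 and 1.28 in combination tumors. The ratio fell below 1 in ADU-S100 tumors 1506 and 1512 and in no other. Ifngr1 over Ifnar2 ranged from 1.38 to 2.41 in vehicle, 1.40 to 2.26 in ADU-S100, 1.42 to 6.46 in olaparib and 1.71 to 1.97 in combination tumors.

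The log2 ratios were compared in 9 two-sided exact permutation tests. For the combination against the 9 other tumors, the difference was -0.61 for Ifnar1 over Ifnar2 (exact permutation p = 0.118), 0.32 for Ifngr1 over Ifnar1 (exact permutation p = 0.0636) and -0.30 for Ifngr1 over Ifnar2 (exact permutation p = 0.545), where the smallest p that 220 splits allow is 0.0045. For tumors with ADU-S100 against those without, the exact permutation p-values were 0.530, 0.455 and 0.301 in the same order, and for tumors with olaparib against those without 0.942, 0.110 and 0.420. Adjusted over the 9 tests by Benjamini-Hochberg, the smallest exact permutation p was 0.355. None of the 9 differences exceeded the spread between tumors. The third difference was -0.10 without olaparib tumor 1510. Single tumors moved some of these values: without vehicle tumor 1269 the first difference was -0.73 (exact permutation p = 0.0485), and the second was 0.36 without vehicle tumor 1529 or olaparib tumor 1510 and 0.38 without combination tumor 1539 (exact permutation p = 0.0485, 0.0485 and 0.0364). The Ifngr1 over Ifnar1 difference between tumors with and without olaparib was 0.37 without tumor 1517 (exact permutation p = 0.0433).

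**Figure D5:**
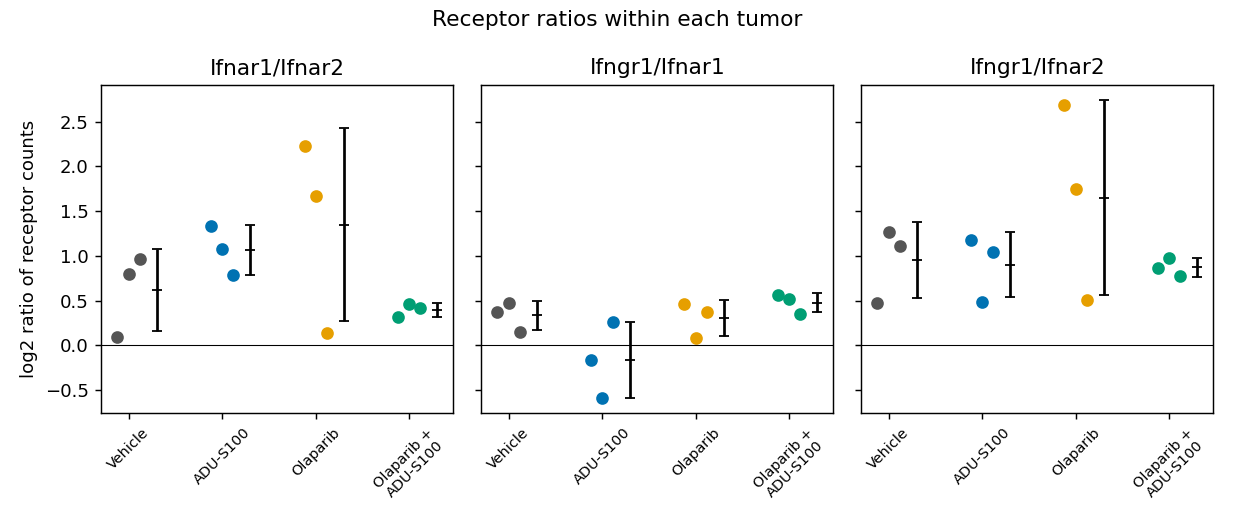
Log2 ratios of the counts of receptor pairs within each tumor, by group, with 1 point per tumor and the mean ± SD (n = 3). The olaparib tumors spread most for Ifnar1/Ifnar2 and Ifngr1/Ifnar2, the latter from a ratio of 1.42 to 6.46, and 2 ADU-S100 tumors lie below 0 for Ifngr1/Ifnar1.

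Over the 12 tumors the receptors did not share 1 pattern. As a description, the Pearson correlation of log2 normalized counts was 0.154 between Ifnar1 and Ifnar2, 0.686 between Ifnar1 and Ifngr1 and 0.193 between Ifnar2 and Ifngr1, and all genes of a tumor share its factor. Among the 689 genes, those most like Ifnar1 were Tnfsf18 (0.953), H2-Q2 (0.953) and Dll4 (0.9501). Those most like Ifnar2 included Jak2, a kinase of cytokine receptors (0.937), and Gtf3c1 (0.903), and those most like Ifngr1 were Cd164 (0.889), Txnip (0.879) and Gata3 (0.873).

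The rest of the pathway gives the setting of these genes. Of other interferon ligands and receptors the panel held Ifnl2, a lambda interferon, with 7 to 27 counts and a log2 fold change of 0.82 in ADU-S100, 1.27 in olaparib and -0.09 in the combination against vehicle. The olaparib value rested largely on tumor 1517, with 73.4 normalized counts from 7 counts. The sign in the combination rested on vehicle tumor 1269, with 18.4 normalized counts. Against vehicle, 450 of the 689 genes had higher means in the combination, 539 in ADU-S100 and 514 in olaparib tumors, and the lists are read beside these counts and the medians of all genes, 0.21, 0.44 and 0.45. Of 9 genes that signal from the receptors, 7 had higher means than in vehicle in each treatment, with medians of 0.40 in the combination, 0.20 in ADU-S100 and 0.50 in olaparib tumors. These were not the same 7 genes: the kinase Tyk2 stood at -0.27 in the combination, 1.71 in ADU-S100 and 1.41 in olaparib tumors, and the kinase Jak2 was the lowest of the list in ADU-S100 (-0.12) and olaparib tumors (-0.46). Of 16 sensing and induction genes upstream of the ligands, 12 were higher in the combination (median 0.52), from -0.29 for Tlr8 to 2.20 for Irf7, 12 in ADU-S100 (median 0.28) and 15 in olaparib tumors (median 0.53). Of 27 interferon-stimulated genes, 27 were higher in the combination, 11 of them at an unadjusted p below 0.05 in limma, with a median of 1.496 against 0.21 for all genes. In ADU-S100 23 were higher (median 0.48) and in olaparib 25 (median 0.9998), and 2 and 6 genes had an unadjusted p below 0.05 in limma. The shares of all genes at this p were 7.69% in the combination, 4.79% in ADU-S100 and 7.26% in olaparib tumors, so that the 2 genes in ADU-S100 lay near the share of all genes. In each of these lists 0 genes passed limma's adjusted threshold in any comparison with vehicle. For the 5 ligands the medians over the same tumors were 0.09 in the combination, 1.16 in ADU-S100 and 1.08 in olaparib, in the fit without a filter. Of 12 genes that induce Ifng or receive its inducers, 9 were higher in the combination (median 0.63), 11 in ADU-S100 (median 0.47) and 11 in olaparib tumors (median 0.87), and 1, 2 and 1 of them had an unadjusted p below 0.05 in limma, beside the same shares of all genes. Of the 12, 0 passed limma's adjusted threshold against vehicle.

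Cell type markers were set beside the ligand and receptor values, and in each marker list 0 genes passed limma's adjusted threshold in any comparison. The summed normalized count of 18 T and NK cell markers ranged from 283 to 563 in vehicle, 519 to 1871 in ADU-S100, 361 to 2023 in olaparib and 689 to 1199.5 in combination tumors, and 15 of the 16 that passed the filter were higher in the combination than in vehicle (median 1.29), 16 in ADU-S100 (median 1.21) and 15 in olaparib tumors (median 1.397). Before scaling, the sums were 379 to 526 recovered counts in vehicle, 337 to 657 in ADU-S100, 193 to 613 in olaparib and 850 to 1455 in combination tumors. Both single treatments thus overlapped vehicle in recovered counts. The 30 lowest genes had medians of 0.91 in ADU-S100, 0.91 in olaparib and 0.05 in combination tumors, in the fit without a filter. For 5 dendritic cell markers the sum ranged from 214 to 392 in vehicle, 253 to 698 in ADU-S100, 295 to 692 in olaparib and 487 to 580 in combination tumors. The 9 myeloid markers summed to 4904 to 7758 in vehicle, 5943 to 12584 in ADU-S100, 6657 to 7902 in olaparib and 6560 to 8512 in combination tumors. The 3 epithelial markers, Epcam, Cdh1 and Muc1, summed to 10802 to 21498 in vehicle, 11861 to 19063 in ADU-S100, 12324 to 22177 in olaparib and 17779 to 20694 in combination tumors, so that the labelled carcinoma tissue carried its markers in every tumor. The 10 stromal and endothelial markers summed to 19191 to 100184 in vehicle, 38095 to 65717 in ADU-S100, 7485 to 49788 in olaparib and 16543 to 31237 in combination tumors. Against vehicle, 10 of 10 were lower in the combination (median -0.91), 6 in ADU-S100 (median -0.11) and 9 in olaparib tumors (median -0.80), of which 1, 0 and 4 had an unadjusted p below 0.05 in limma, where 7.69%, 4.79% and 7.26% of all genes did. No T and NK, dendritic, myeloid, epithelial or stromal marker was at 0 counts in any tumor. A count above 0 does not show that a cell type was present, since the 30 lowest genes had medians of 3 to 7.5 counts per tumor. Of the 18 T and NK cell markers, 2 had at most 20 counts in every tumor. Of 8 B cell markers, 1 passed the filter and 5 had at most 20 counts in every tumor, and Fcer2a was at 0 in at least 1 tumor. The part of cell content in the interferon values was not tested.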

How the data were processed

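The authors deposited normalized mRNA counts, a signal on a linear scale, for 750 genes in 12 tumors. In nSolver they checked the quality of the samples run with 100 ng of RNA, corrected for background and normalized to positive controls and housekeeping genes. They also dropped raw counts that fell below the negative controls. Whether the recovered counts are those before or after the background correction was not tested. Control probes were not analysed here. The members and gene lists were chosen with earlier results of these data known. Groups came from the sample titles.

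Counts were recovered by dividing each value by the step of its tumor, with values at the floor of 1 set to 0. In each tumor 100% of values above the floor were whole within 0.01 of a count. They were used as a description and in ratios, and no count model was fitted. Limma 3.58.1 in R 4.3.3 (lmFit and eBayes) fitted 1 mean per group over the 12 tumors on log2(normalized count + 1) of the 689 genes kept, with Benjamini-Hochberg adjustment over all of them. The fit was tested on simulated data. Ratios were compared with exact permutation tests (scipy 1.17.1). The text names the 8 members and, for each receptor, the 3 genes most correlated with it, of which 1 is not reported here. Promoter sequences came from RefSeq.

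The fit was repeated with quantile normalization or median scaling, a filter at 50 or none, a pseudocount of 10, an intensity trend, the methods' t-test, only the groups compared, the series of tumor numbers as a block, the log2 factor as a covariate, subtraction of the median of the 30 lowest genes, and each tumor left out, and the background also used other sets of lowest genes.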

Additional observations from a re-analysis of the deposited data

How the results depend on the processing

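Under the alternatives other than leaving out a tumor, 0 members passed the adjusted threshold in limma in any comparison. When single tumors were left out, the members called ranged from 0 to 3 for olaparib against vehicle and for the combination against olaparib, and from 0 to 4 for the interaction. The higher number came each time without olaparib tumor 1521, and the called members were ligands. The called ligands had passed the filter through the tumors in which they were high, so these calls say nothing about stability. Small differences changed sign in ligands and receptors alike. For the combination against vehicle, Ifna1 was -0.12 with median scaling, -0.12 with quantile normalization and -0.064 with background subtracted, Ifna2 was 0.037 with the series of tumor numbers as a block, Ifnar1 was -0.12 with median scaling and -0.14 with quantile normalization, and Ifngr1 was -0.076 with quantile normalization. With quantile normalization Ifna2 was -0.088 in ADU-S100, and Ifnar1 was -0.041 and Ifngr1 -0.085 in olaparib, all against vehicle. With median scaling Ifnar1 was -0.0076 in ADU-S100 and -0.024 in olaparib, and Ifngr1 -0.055 in olaparib. For the combination against olaparib, Ifngr1 was 0.073 with median scaling and 0.0084 with quantile normalization. With the block, Ifnar2 was 0.068 in ADU-S100 against vehicle and the Ifngr1 interaction -0.033. The factor as a covariate made Ifna2 -0.19 in ADU-S100 and -0.27 in olaparib, Ifnar1 -0.055 and -0.21, and Ifngr1 -0.15 in olaparib, all against vehicle. It made Ifna2 0.14 and Ifnar1 0.18 for the combination against ADU-S100, Ifna2 0.22, Ifnar1 0.34 and Ifngr1 0.41 against olaparib, and the interaction 0.41 for Ifna2 and 0.39 for Ifnar1. With single tumors left out, the combination against vehicle ranged from -0.20 to 0.30 for Ifna1, -0.37 to 0.11 for Ifna2, -0.38 to 0.10 for Ifna4 and -0.025 to 0.22 for Ifnar1. Against olaparib it ranged from -0.55 to 0.21 for Ifnar1 and -0.34 to 0.27 for Ifngr1. ADU-S100 against vehicle ranged from -0.32 to 0.18 for Ifnar2 and -0.29 to 0.15 for Ifngr1. Olaparib against vehicle ranged from -0.13 (without olaparib tumor 1517) to 0.63 for Ifnar1, -0.70 to 0.18 (without olaparib tumor 1510) for Ifnar2 and -0.049 to 0.57 for Ifngr1, and the Ifngr1 interaction from -0.25 to 0.37. The causes were not tested. With each tumor left out, the log2 ratio difference of the combination from the other tumors ranged from -0.73 to -0.46 for Ifnar1 over Ifnar2 and from 0.22 to 0.38 for Ifngr1 over Ifnar1. That between tumors with and without olaparib ranged from -0.24 to 0.18 for Ifnar1 over Ifnar2 and from 0.17 to 0.38 for Ifngr1 over Ifnar1. With the 15 lowest genes as background, 1 member was near background in place of 5. No paired analysis was possible because the groups share no replicate numbers. A count model on the recovered counts, planned with 2 scalings, was not run, because in 7 tumors the smallest value was the floor or stood for more than 1 count and the step could not be read from it directly. The ligands had 4 to 26 counts per tumor, and 3 tumors per group limit the precision of every difference.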
